A study of Mus musculus with 6 samples.

Results

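Long intergenic non-coding RNAs (lincRNAs) are long, usually spliced and polyadenylated transcripts of genes that lie between protein-coding genes and are not annotated as coding for a protein. Here they are the genes that the deposited table types as lincRNA and that averaged at least 30 counts over the 6 libraries. Hosts of small nucleolar RNAs (the Snhg genes, Gas5 and Zfas1) and the imprinted H19 and Meg3 were left out. That gave 142 of the 5271 lincRNA genes in a table of 53465 genes. Of the other lincRNA genes, 3 were over the threshold but left out by name and 5126 lay under it, and 4002 had no count in any library. The genes just inside the threshold were Gm44053, Gm47398 and Gm49207, with mean counts of 30.2, 30.3 and 30.5. Those just outside were Gm26517, AI427809 and 4930558J18Rik, with 29.8, 29.8 and 29.7. The members were thus chosen by their mean count over both groups together, so their levels are a description. The rule did not use the difference between the groups, though it was set with earlier results of these data known. A gene with low counts in either group could also enter through its counts in the other.

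The libraries came from wild type mice that had all received 5.0 Gy of radiation to the whole body, followed by carnosine, the dipeptide beta-alanyl-histidine, in 3 libraries and by saline in the other 3. Bone marrow cells were sorted as long-term haematopoietic stem cells (Lineage-, Sca-1+, c-Kit+, Flk2-, CD34-), and polyadenylated RNA was made into stranded paired-end libraries. No unirradiated group was analysed here, and neither strain, age, carnosine dose nor time of sampling is given in the sources used here. Total counts were 12730837 to 13651553 in the carnosine libraries and 12602067 to 16866534 in the saline libraries. Nothing in the labels tells whether each library was made from its own mice, so every p-value here rests on the spread among libraries, part or all of which may be technical. The gate markers were only partly matched by the transcripts. Kit was high, at 378 ± 4.11 CPM with carnosine and 329.6 ± 10.2 CPM with saline (SD, n = 3 each; CPM are counts scaled to library size), but Flt3, which encodes the excluded Flk2, was at 179.9 ± 2.51 CPM with carnosine and 210.3 ± 8.64 CPM with saline. Cd34, which encodes the marker the sorted cells should lack, was at 301 ± 4.70 CPM with carnosine and 329 ± 18.95 CPM with saline. Ly6a, which encodes the required Sca-1, was at 29.2 ± 8.79 CPM with carnosine and 30.2 ± 8.13 CPM with saline, so the sort name is used for the gate and not as a checked identity.

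lincRNAs act in several ways that are known in mouse cells. Some stay in the nucleus and build or occupy nuclear bodies, as Malat1 and Neat1 do. Others regulate a neighbouring gene from their own locus, bind proteins or microRNAs in the cytoplasm, or are the precursors from which microRNAs are cut. In blood they include Morrbid, which sets the lifespan of short-lived myeloid cells, and the host of the miR-17 to miR-92 cluster, which acts in B cell development.

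The label lincRNA held for most but not all of the 142 genes when set against other annotation. GENCODE M21 types 138 of them as lincRNA, 3 as antisense (Gm26885, Gm26749 and Gm17552) and 1 as a processed transcript (Gm1976). RefSeq lists 71 as lncRNA, 10 as protein-coding and 3 as a pseudogene kind, and 58 had no matching entry. The 10 that RefSeq takes as coding include Gpr141b, Gm32856, Gm46430 and 1810058I24Rik, whose synonym is Stmp1, the gene of a small mitochondrial protein. Of the 142, 9 overlapped a protein-coding gene on their own strand, 27 only one on the opposite strand, and 106 none. In 14 members at least 50% of the transcript was at least 95% identical to a transcript counted elsewhere in the table, in 9 of them to one of a protein-coding gene. The sources used here state neither how reads shared by such copies were assigned nor whether counting used strand, so the values of those members are uncertain.

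The members were short, simple and low in comparison with coding genes that passed the same threshold of 30 counts. Their median exonic length was 2650 bases in a median of 2 exon blocks, against 4560 bases in 10 exon blocks for 11165 protein-coding genes. A single exon block was annotated for 29 members (20.4%) and for 314 protein-coding genes (2.81%). The median level per length was 1.96 FPKM (fragments scaled to gene length and library total) for the members, which ran from 0.355 to 130.5 FPKM, against 5.78 FPKM for the coding genes. By FPKM the 8 most abundant members were Gm10076 (130.5), Malat1 (68.5), Gm17275 (49.3), Gm26917 (46.2), 2900097C17Rik (39.4), Gm26825 (38.9), Gm42047 (34.8) and AU020206 (33.1). Chromosome 5 held the most members, 20, and 120 of the 142 carried placeholder names with no role attached.

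Carnosine libraries had higher levels of 25 lincRNAs and lower levels of 27 (edgeR's quasi-likelihood test across 15533 genes, Benjamini-Hochberg adjusted p under 0.05). These 52 genes were 36.6% of the members, near the 39.4% of all tested genes that passed and below the 43.3% of protein-coding genes with at least 30 counts. By direction, 19.6% of all tested genes passed as higher and 19.8% as lower. The median log2 fold change (carnosine over saline) was 0.0052 for the members and -5.0e-05 for all tested genes, so the lincRNAs did not move one way as a class. A change of at least 2-fold was found for 3 members that rose and 7 that fell, against 3.06% and 3.53% of all tested genes. With the DESeq2 Wald test 13 members were higher and 19 lower, among 2149 higher and 2301 lower genes in all. The 2 groups of libraries did not overlap in 71 members, against 52.3% of all tested genes. Fewer cells of a type and less RNA per cell cannot be told apart in such bulk libraries.

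Depth moved with the share of members that passed. The median member had 67.2 counts and a standard error of 0.159 in its log2 fold change, against 312.7 counts and 0.0930 for all tested genes. Among members of 30 to 100 counts 26.9% of 93 passed, against 37.8% of the coding genes in that range. From 100 to 1000 counts it was 47.4% of 38, against 40.0%. Of the 11 members with at least 1000 counts, 81.8% passed, 4 higher and 5 lower, against 52.2% of such coding genes. The difference between members and coding genes within these ranges was not tested.

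**Figure D1:**
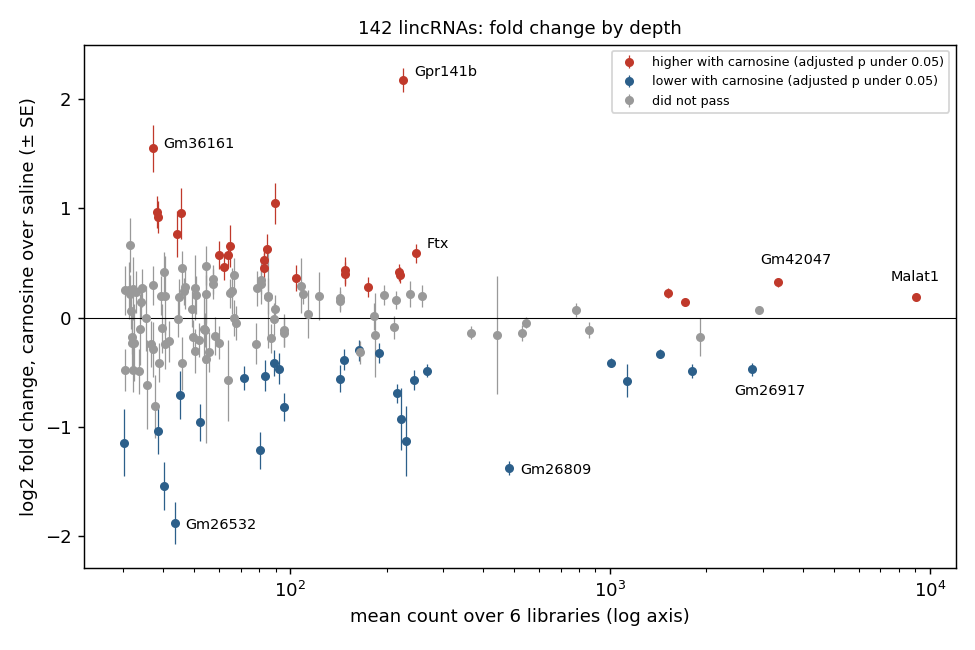
Log2 fold change (carnosine over saline, ± SE) of the 142 lincRNAs against their mean count over 6 libraries on a log axis, with 25 that rose in red, 27 that fell in blue and the rest in grey. The largest changes, Gpr141b at 2.18 and Gm26532 at -1.88, lie at low to middle counts, and error bars shorten towards Malat1 at the right.

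Markers of stem cells and of other blood cells also differed between the groups. The 9 gate and stem cell genes summed to 931 to 953 CPM with carnosine and 965 to 1002 CPM with saline, without overlap, with 1 higher (Kit) and 4 lower. Those lower were Flt3 (-0.22), the surface marker gene Slamf1 (-0.93), the stem cell transcription factor gene Mecom (-1.01) and Fgd5 (-0.90), on the log2 scale. Ly6a, Cd34, Procr and Hlf did not pass. Kit, Cd34 and Flt3 made up most of this sum. Cd34 and Flt3 encode markers that the gate excludes, so the sum is no measure of stem cells. The summed level of 10 neutrophil and myeloid progenitor genes was 7469 to 7711 CPM with carnosine and 3660 to 3686 CPM with saline. Mpo alone made up most of it. Of the 10 tested genes 6 were higher (Mpo, Elane, Prtn3, Ctsg, Cebpe and S100a8). Another 3 were lower, Ltf (-3.08), Ngp (-2.02) and S100a9 (-1.20), so the list did not move one way. For megakaryocytes the sum was 194 to 203 CPM with carnosine and 478 to 500.2 CPM with saline, with 9 of 9 tested genes lower and Gp6 at 0. Neither of these sums overlapped between the groups. Plasma and B cell genes summed to 2823 to 3102 CPM with carnosine and 2311 to 2344 CPM with saline (5 of 14 higher, 2 lower). Erythroid genes summed to 976 to 989 CPM with carnosine and 774 to 785 CPM with saline (7 of 9 higher, 1 lower). T and NK cell genes summed to 125 to 135 CPM with carnosine and 89.6 to 91.6 CPM with saline (4 of 6 higher, 1 lower). These 3 sums were higher with carnosine in every library, but a few genes carried much of each. Igkc stood at 2002 CPM with carnosine and 1126 CPM with saline, while Ighm went the other way, at 281 and 692 CPM. Nkg7 made up most of the T and NK sum, at 114 CPM with carnosine and 81.5 CPM with saline. Car1 and Tfrc made up most of the erythroid sum. The sums are thus no measure of cell numbers. The sums for monocytes and macrophages overlapped, at 275 to 323 CPM with carnosine and 274 to 302 CPM with saline (2 of 5 higher, 2 lower). Endothelial and stromal genes stood at 134 to 142 CPM with carnosine and 160 to 171 CPM with saline (0 of 6 higher, 4 lower). The part of these shifts in the lincRNA differences was not tested.

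Gpr141b had the largest rise. It lies on chromosome 13 (GRCm38, 19727426 to 19732951, minus strand), and RefSeq lists it as a coding gene related by name to its neighbour Gpr141, an orphan G protein-coupled receptor. It stood at 30.1, 25.9 and 24.3 CPM in carnosine libraries, against 5.82, 6.30 and 5.60 CPM in saline libraries. All 3 carnosine libraries lay far above every saline library, and the log2 fold change was 2.18 ± 0.106 (SE; edgeR, adjusted p = 8.7e-06), a 4.52-fold difference. Gpr141 itself, 16731 bases away, was at 10.0 ± 0.499 CPM with carnosine and 5.11 ± 0.469 CPM with saline, and rose by 0.97 ± 0.106 on the log2 scale (edgeR, adjusted p = 0.00042).

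Further rises of about 2-fold or more were in genes without a known role. Gm36161 had 3.88, 4.18 and 3.94 CPM with carnosine and 0.970, 1.75 and 1.38 CPM with saline. The groups were well apart, with a log2 fold change of 1.55 ± 0.212 (edgeR, adjusted p = 0.0012). Its transcript is 95.7% identical to that of Gm21188, a gene listed as coding that rose as well, so reads of the pair may be shared. Gm36723, a gene of 20 exon blocks spread over chromosome 12, had 8.05, 9.37 and 8.34 CPM with carnosine, against 4.67, 4.80 and 2.84 CPM with saline. Every carnosine library was higher, and the saline libraries varied more among themselves (log2 fold change 1.05 ± 0.19; edgeR, adjusted p = 0.0045).

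The other 7 of the 10 largest rises were smaller. Gm33280, Prr33 and 2010110K18Rik rose by 0.97, 0.96 and 0.92 on the log2 scale, with standard errors of 0.146, 0.233 and 0.146, at mean levels of 3.64, 4.30 and 3.60 CPM with carnosine and 1.86, 2.22 and 1.91 CPM with saline (edgeR, adjusted p = 0.0019, 0.016 and 0.0024). Gm32856, which RefSeq lists as coding, rose by 0.62 ± 0.138 and Ftx by 0.59 ± 0.0858, both with groups that did not overlap. 2310031A07Rik (0.76 ± 0.21; edgeR, adjusted p = 0.025) and 1700001L05Rik (0.66 ± 0.194; edgeR, adjusted p = 0.032) passed only narrowly. 2310031A07Rik lost its call without carnosine replicate 1 or 2 or saline replicate 1 or 3 (adjusted p 0.0545 to 0.0816, edgeR), and 1700001L05Rik without any single library other than saline replicate 1 (0.0676 to 0.0978). Values of the rises below these ran down to 0.14 for AU020206.

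**Figure D2:**
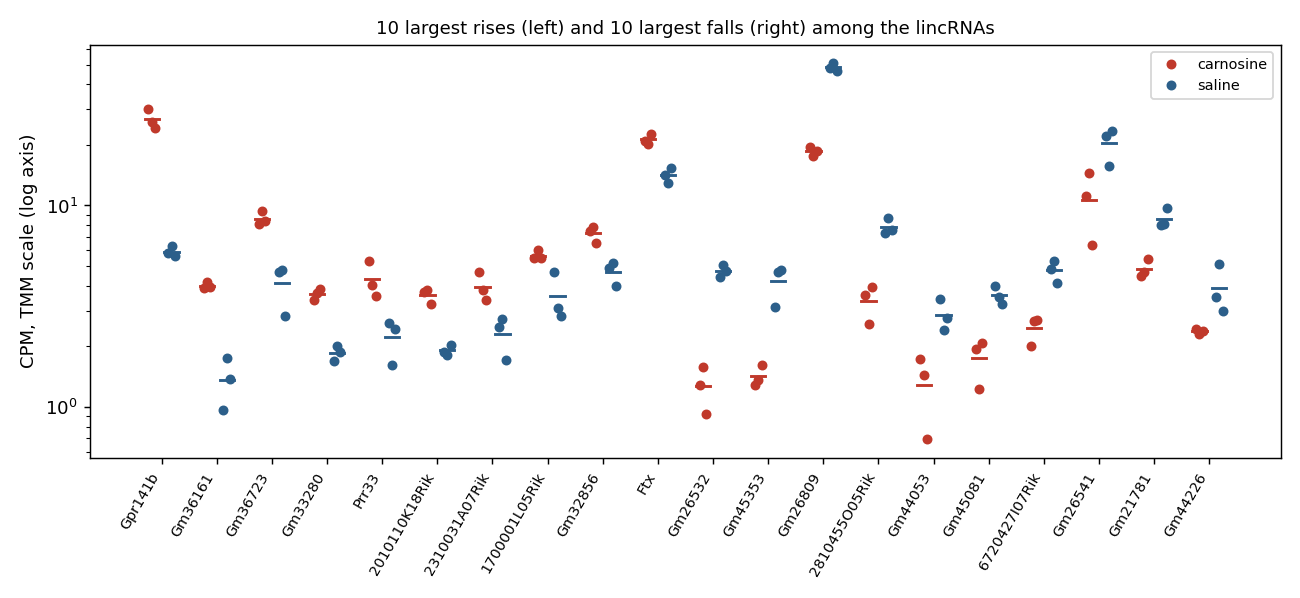
CPM on a log axis in each of 3 carnosine (red) and 3 saline (blue) libraries for the 10 largest rises on the left and the 10 largest falls on the right, with bars at the group means. Gpr141b, at 24.3 to 30.1 CPM with carnosine and 5.60 to 6.30 CPM with saline, and Gm26809, at 17.7 to 19.6 CPM with carnosine and 46.5 to 50.6 CPM with saline, are the widest gaps among the more abundant ones.

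The falls included one abundant gene, Gm26809, and several rarer ones. Gm26809 on chromosome 6 (18844220 to 18847360, plus strand) had 19.6, 17.7 and 18.5 CPM with carnosine and 48.0, 50.6 and 46.5 CPM with saline. The groups lay far apart with little spread in either, and the log2 fold change was -1.38 ± 0.0634 (edgeR, adjusted p = 6.3e-06). Its nearest coding gene, Lsm8, which encodes a subunit of the ring that binds U6 RNA and lies 1219 bases away, was at -0.04 (edgeR, adjusted p = 0.79). Gm45353 (-1.55 ± 0.223) and 2810455O05Rik (-1.22 ± 0.168), both on chromosome 8, averaged 1.43 and 3.38 CPM with carnosine and 4.21 and 7.84 CPM with saline, with no overlap between the groups (edgeR, adjusted p = 0.0015 and 0.0012). Both overlap Gm20388, a coding gene model that was not tested. Gm45081 fell by 1.04 ± 0.214 and Gm21781 by 0.82 ± 0.128, again without overlap.

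A further 3 falls were less steady. Gm44053 had 24, 20 and 9 counts with carnosine and 57, 37 and 34 counts with saline, and Gm26541 had 155, 201 and 82 counts with carnosine and 366, 241 and 289 counts with saline. In both the counts of the carnosine libraries were more than 2-fold apart, although no carnosine library reached a saline library. Gm44053 changed by -1.15 ± 0.307 (edgeR, adjusted p = 0.022) and lost the call without carnosine replicate 2 or saline replicate 1 (0.0505 and 0.0763). Gm26541 changed by -0.93 ± 0.283 (edgeR, adjusted p = 0.036) and lost it without carnosine replicate 1 or 3 or saline replicate 1 or 3 (0.0511 to 0.0962). Gm44226 (-0.71 ± 0.221; edgeR, adjusted p = 0.039) lost its call without any single library other than saline replicate 3 (0.0593 to 0.10). Its change was -0.46 without saline replicate 2, the highest of its group at 5.13 CPM, against 3.52 and 3.01 CPM in the other 2.

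A microRNA hairpin on their own strand was overlapped by 6 lincRNA genes, of which 1 rose and 3 fell, too few to set against the 39.4% of all tested genes that passed. MicroRNAs pair with target transcripts mainly through the seed, bases 2 to 8. For hairpins inside or just beside 5 of these genes in RefSeq (GRCm38.p6), 1 mature sequence per hairpin is shown, with the seed in capitals. These sequences name regulators encoded at each locus, and other mature sequences of the same hairpins are left out. Beside Gm26532 they are those of the miR-23a, miR-27a and miR-24-2 cluster, known in mouse blood progenitors to favour myeloid over lymphoid fates. These hairpins lie upstream of the annotated gene, which overlaps only the last 2 bases of Mir24-2 and so holds none of the mature sequences.
mmu-miR-23a-3p: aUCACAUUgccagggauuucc
mmu-miR-27a-3p: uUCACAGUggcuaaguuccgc
mmu-miR-24-3p: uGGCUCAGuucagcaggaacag
At 6720427I07Rik they are 3 members of the let-7 family, which represses growth and fetal-type genes, and which share the seed GAGGUAG. The hairpin of let-7d lies inside the annotated gene, and those of let-7f and let-7a lie outside it.
mmu-let-7d-5p: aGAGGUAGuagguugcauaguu
mmu-let-7f-5p: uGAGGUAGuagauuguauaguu
mmu-let-7a-5p: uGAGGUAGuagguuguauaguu
Those inside 4833445I07Rik and Ftx share no seed with the others shown.
mmu-miR-191-5p: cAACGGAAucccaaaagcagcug
mmu-miR-425-5p: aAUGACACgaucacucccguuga
mmu-miR-374b-5p: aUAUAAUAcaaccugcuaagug
mmu-miR-421-5p: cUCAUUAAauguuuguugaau
Those shown for Mir17hg fall into 4 seeds, of which AAAGUGC is common to miR-17 and miR-20a and GUGCAAA to miR-19a and miR-19b.
mmu-miR-17-5p: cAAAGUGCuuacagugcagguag
mmu-miR-20a-5p: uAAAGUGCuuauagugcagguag
mmu-miR-18a-5p: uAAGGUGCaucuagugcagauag
mmu-miR-19a-3p: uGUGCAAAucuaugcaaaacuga
mmu-miR-19b-3p: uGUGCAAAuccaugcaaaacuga
mmu-miR-92a-3p: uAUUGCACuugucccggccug

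Gm26532 was the member with the largest fall. The gene (chromosome 8, 84208920 to 84209609, plus strand) begins within the last 2 bases of the Mir24-2 hairpin, with Mir27a 161 and Mir23a 327 bases upstream of it. It had 1.29, 1.59 and 0.927 CPM with carnosine and 4.42, 5.06 and 4.71 CPM with saline. Carnosine libraries were all far lower, with a log2 fold change of -1.88 ± 0.195 (edgeR, adjusted p = 0.00032), a 3.69-fold difference. Counts were low, 12 to 22 with carnosine and 58 to 78 with saline.

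6720427I07Rik and 4833445I07Rik fell less. 6720427I07Rik, which holds the Mirlet7d hairpin and starts 6 bases downstream of Mirlet7f-1 and 356 bases downstream of Mirlet7a-1, had 2.01, 2.67 and 2.70 CPM with carnosine, against 4.85, 5.32 and 4.14 CPM with saline. The groups did not overlap (log2 fold change -0.96 ± 0.17; edgeR, adjusted p = 0.0040). 4833445I07Rik, which holds Mir191 and Mir425 and was picked after its values were seen, had 53, 57 and 56 counts with carnosine and 99, 88 and 77 counts with saline. No carnosine library reached a saline library, and it fell by 0.55 ± 0.11 on the log2 scale (edgeR, adjusted p = 0.0068). These are counts of polyadenylated transcripts of the annotated genes, not levels of the mature microRNAs, which such libraries do not hold.

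Mir17hg, which encodes 6 microRNAs of the miR-17 to miR-92 cluster known to restrain the death gene Bcl2l11, had 14.3, 15.6 and 14.7 CPM with carnosine and 13.7, 13.5 and 11.5 CPM with saline. The carnosine libraries were higher by a margin too small for the test (log2 fold change 0.20 ± 0.0921; edgeR, adjusted p = 0.12). Gm37233, the host of Mir5103, was listed at 79, 0 and 56 counts with carnosine and 74, 72 and 46 counts with saline. The 0 in carnosine replicate 2 stood apart from the other libraries, and the gene did not pass (-0.38 ± 0.77; edgeR, adjusted p = 0.73).

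**Figure D3:**
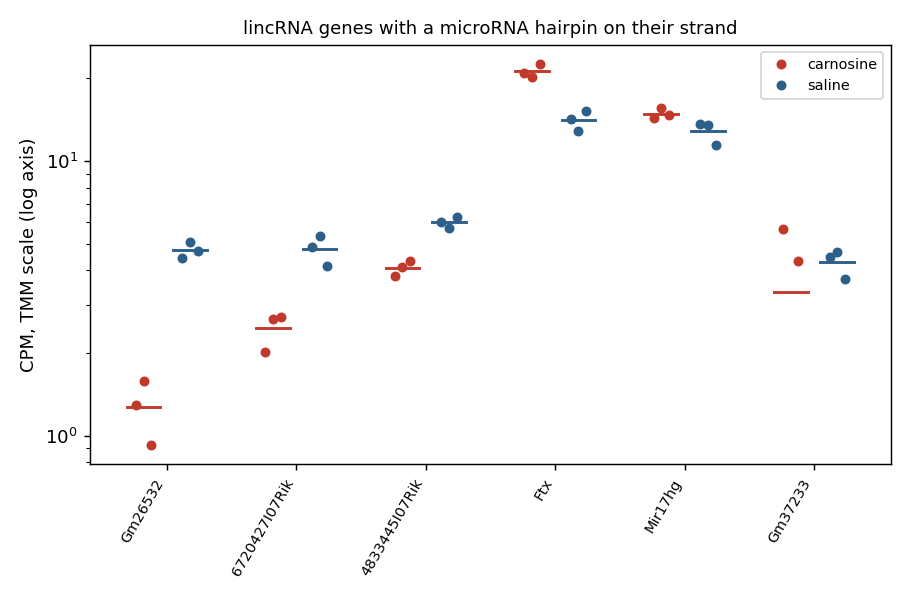
CPM on a log axis in 3 carnosine (red) and 3 saline (blue) libraries for the 6 lincRNA genes that overlap a microRNA hairpin on their strand, with bars at the group means. Gm26532, 6720427I07Rik and 4833445I07Rik lie lower with carnosine and Ftx higher, and carnosine replicate 2 of Gm37233, at 0, cannot be drawn on this axis.

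Malat1, which localises to nuclear speckles and is among the most abundant nuclear RNAs, rose slightly. It had 689, 683 and 674 CPM with carnosine and 590, 602 and 604 CPM with saline, every carnosine library above every saline library. The log2 fold change was 0.19 ± 0.0213 (edgeR, adjusted p = 0.0005), a 1.14-fold difference measured on 7432 to 9728 counts a library. Neat1, the scaffold of paraspeckles transcribed from the same region of chromosome 19, had 161, 111 and 109 CPM with carnosine and 133, 128 and 171 CPM with saline. Its groups overlapped, with carnosine replicate 1 and saline replicate 3 well above the rest, and it did not pass (-0.18 ± 0.174; edgeR, adjusted p = 0.46). Among the other abundant members, Gm42047, which overlaps Gm20388 on its own strand, rose by 0.32 ± 0.0377 and Gm17275, which overlaps the histone gene H3f3a on the other strand, fell by 0.49 ± 0.0642. Parts of the Gm42047 transcript are near-identical to the lincRNA genes Gm48362 (98.4%), Gm47939 (99.1%) and Gm43549 (99.1%). These averaged 1.33, 2.17 and 31.3 counts, and reads may be shared with them.

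At the X inactivation centre Ftx rose, while its neighbour Jpx did not pass the test. Both encode non-coding RNAs known in mouse to promote expression of Xist, which coats the inactive X chromosome. Ftx had 20.9, 20.3 and 22.6 CPM with carnosine and 14.2, 12.9 and 15.3 CPM with saline. There was no overlap, and the adjusted p was 0.0016 (edgeR). Jpx had 3.88, 1.59 and 3.86 CPM with carnosine and 2.61, 2.01 and 3.57 CPM with saline, with overlapping groups and counts more than 2-fold apart within one (0.20 ± 0.362; edgeR, adjusted p = 0.70). Xist itself was no member: it had 1, 5 and 3 counts with carnosine and 4, 3 and 5 counts with saline, too few to be tested.

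Norad, listed as 2900097C17Rik, is a cytoplasmic RNA known to bind and hold back Pumilio proteins, repressors of transcripts that carry the element TGTANATA. Its annotated transcript of 4915 bases held 11 copies of these letters on the sense strand, 2.24 per kilobase, against 0.177 per kilobase over the longest transcripts of all 142 members, of which 45 held at least 1. Of the 11 copies, 3 are shown with the element in capitals, named by their first base in the transcript, to show how the middle base varies.
Norad 651: aagtcctgTGTATATAatatgaaa
Norad 1147: aaacatgcTGTAAATAcctttttg
Norad 1336: cttttcttTGTACATAgtgtatgt
Norad had 212, 216 and 207 CPM with carnosine and 201, 205 and 200.2 CPM with saline. The groups did not overlap but lay close, and the gene did not pass (log2 fold change 0.07 ± 0.0277; edgeR, adjusted p = 0.10). On log2(FPKM + 1) values it did pass with limma-trend (0.12, adjusted p = 0.019). The only other member with at least 5 copies, Gm7292, held 9 and is 99.2% identical to Norad over its length. It stood at 35.4 ± 3.31 CPM with carnosine and 39.1 ± 1.27 CPM with saline (SD, n = 3 each), so a part of its counts may be Norad reads.

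Cyrano, listed as 1700020I14Rik, is a conserved RNA known to direct the destruction of miR-7 through a site of extensive pairing. Its transcript of 8300 bases held 2 matches to the miR-7 seed, GTCTTCC, given here in capitals with the bases before them and with miR-7a-5p for comparison. The second was preceded by a run of 13 bases that pair with the 3′ part of miR-7a-5p, while the first had no such run.
mmu-miR-7a-5p: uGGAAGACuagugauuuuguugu
Cyrano 762: tcaggttttttttttaatGTCTTCCaa
Cyrano 2952: aacaacaaaatcaccaatGTCTTCCat
Cyrano had 118, 119 and 112 CPM with carnosine and 94.6, 99.8 and 104 CPM with saline. All carnosine libraries were higher, and it rose by 0.23 ± 0.0452 on the log2 scale (edgeR, adjusted p = 0.0068). Oip5, a centromere gene that starts 2010 bases away on the other strand, was at 16.5 ± 1.47 CPM with carnosine and 10.5 ± 0.875 CPM with saline and rose by 0.65 ± 0.1 (edgeR, adjusted p = 0.0021). Epb41l4aos, set on the same list of described lincRNAs as Norad and Cyrano, fell by 0.32 ± 0.0885 (edgeR, adjusted p = 0.024). It lost that call without any single library other than saline replicate 2 (0.0532 to 0.0754).

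Of 48 symbols on the lists of lincRNAs with a described role, 12 were members, and 3 of them rose (Malat1, Ftx and Cyrano) and 3 fell (Epb41l4aos, Mirt1 and Lockd). Nothing is read from so few genes beside the 39.4% of all tested genes that passed. Mirt1, first named in infarcted mouse heart, had 4.96, 4.61 and 4.79 CPM with carnosine and 6.85, 5.91 and 8.12 CPM with saline. The saline libraries were all higher but spread more (log2 fold change -0.53 ± 0.14; edgeR, adjusted p = 0.021), and the call was lost without carnosine replicate 2 or 3 or saline replicate 1 (0.0528 to 0.0642). Lockd, transcribed beside the cell cycle inhibitor gene Cdkn1b, which its locus is known to enhance in mouse erythroid cells, had 9.78, 8.07 and 8.96 CPM with carnosine and 12.0, 12.0 and 11.0 CPM with saline. No library overlapped, with a fall of 0.39 ± 0.0986 (edgeR, adjusted p = 0.019) that did not pass without carnosine replicate 2 or saline replicate 1 or 2 (0.0555 to 0.0594). Cdkn1b, 3579 bases away, was at -0.37 and missed the threshold (edgeR, adjusted p = 0.096).

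Pvt1 and Morrbid did not pass although the coding genes beside them did. Pvt1, which shares a chromosomal domain with the growth regulator Myc, had 167, 111 and 100 counts with carnosine and 124, 155 and 80 counts with saline. The groups overlapped (0.20 ± 0.223; edgeR, adjusted p = 0.52), while Myc was at 167 ± 3.58 CPM with carnosine and 104 ± 3.17 CPM with saline and rose by 0.68 ± 0.0344 (edgeR, adjusted p = 1.0e-05). Morrbid, listed as Gm14005 and known in mouse myeloid cells to repress the pro-apoptotic gene Bcl2l11 in cis, had 2.73, 2.31 and 2.16 CPM with carnosine and 1.82, 2.08 and 2.36 CPM with saline. These groups also overlapped (0.22 ± 0.178; edgeR, adjusted p = 0.40), and Bcl2l11, at 20.1 ± 1.35 CPM with carnosine and 39.7 ± 9.01 CPM with saline, fell by 0.99 ± 0.165 (edgeR, adjusted p = 0.0031). Of 28 other symbols on the lists that are in the table but are no members, 10 were tested, 0 rose and 2 fell, Mir22hg (-0.90) and Peg13 (-0.85). Trp53cor1, the p53-induced lincRNA-p21, had 22, 15 and 15 counts with carnosine and 15, 18 and 8 counts with saline and did not pass (0.46 ± 0.285; edgeR, adjusted p = 0.24).

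The nearest coding gene of 113 members was tested, and 53 of these neighbours passed, a share near the 43.3% of protein-coding genes with at least 30 counts and the 39.4% of all tested genes. Of the 42 called members with a tested neighbour, 26 had a neighbour that also passed. Of these 26 pairs 19 moved the same way, 8 up and 11 down. The share among other neighbouring genes was not taken, so shared control was not tested. The 113 pairs share their libraries, and over them the log2 fold changes had a Pearson's r of 0.29 and a Spearman's rank correlation of 0.28, given as a description. For the 26 pairs that overlap on opposite strands r was 0.53, for 52 pairs within 10000 bases 0.23, and for 30 pairs farther apart 0.40. For 20 members a coding gene on the other strand starts within 1000 bases of their own start, in the divergent direction. Their r with the nearest coding gene, which need not be that divergent gene, was 0.10. With strand use in counting unknown, reads of overlapping pairs cannot be told apart.

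Pairs that rose together included Gm36723 and Id2, an inhibitor of E protein transcription factors 206800 bases away, which rose by 0.92 ± 0.0495. Prr33 overlaps the leukocyte actin-binding gene Lsp1 (0.42), and 2310031A07Rik the Mediator subunit gene Med7 (0.45). Among pairs that fell, Gm21781 lies 3479 bases from Zbtb2, which encodes a zinc finger repressor and was at 28.6 ± 1.28 CPM with carnosine and 62.3 ± 1.62 CPM with saline (-1.12). Gm26532 lies 1069 bases from Zswim4 (-0.60), and Gm44226 only 20 bases from the lymphocyte survival gene Gimap5 (-0.82). Gm26885, picked after its values were seen, overlaps the survival kinase gene Pim1 on the other strand. It had 11.2, 10.7 and 12.7 CPM with carnosine and 17.6, 19.3 and 18.8 CPM with saline and fell by 0.69 ± 0.0877 (edgeR, adjusted p = 0.00083), beside a fall of 0.81 ± 0.0267 in Pim1.

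Other called pairs moved apart. 2010110K18Rik rose while Fam53c, 221 bases away, fell by 0.29, and Gm26541 fell while the overlapping Mob3a rose by 0.32. AU020206 rose by 0.14 ± 0.0367 (edgeR, adjusted p = 0.020, lost without carnosine replicate 2 at 0.0641) beside a fall of 0.54 in Akap13, which encodes an A-kinase anchoring protein. The widest gap was between Gm19590 (0.45 ± 0.139; edgeR, adjusted p = 0.037) and Kdr, a receptor gene of endothelium and one of the stromal markers above, which fell by 2.40 at a distance of 97182 bases. That call of Gm19590, named after its values were seen, was lost without any one of the 6 libraries (0.0527 to 0.114).

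**Figure D4:**
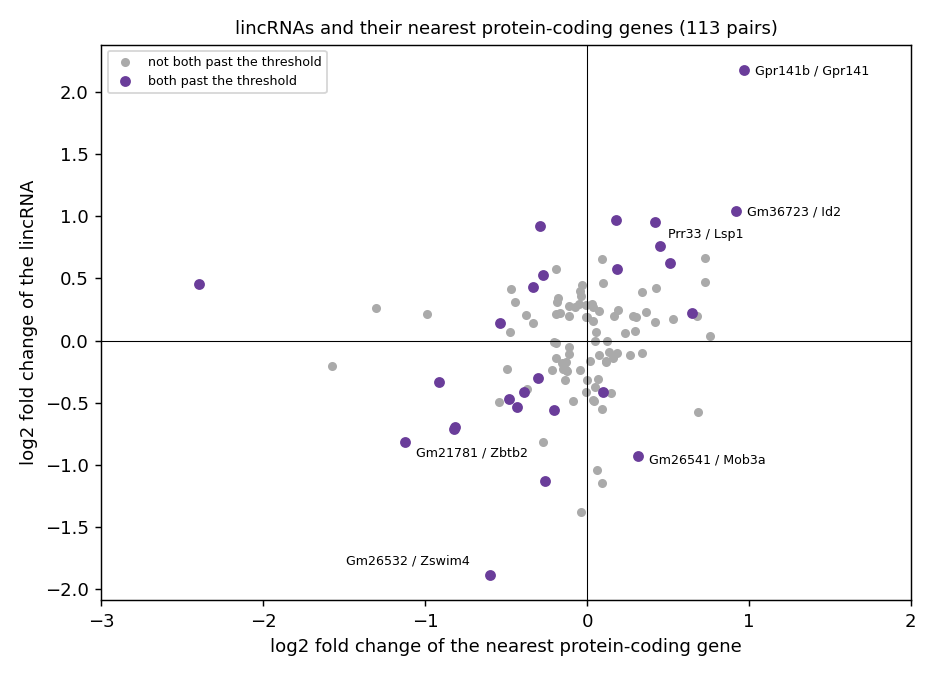
Log2 fold change (carnosine over saline) of each lincRNA against that of its nearest tested protein-coding gene for 113 pairs, with the 26 pairs in which both passed in purple. Gpr141b with Gpr141 and Gm36723 with Id2 lie at the upper right and Gm21781 with Zbtb2 at the lower left, while 7 of the purple pairs lie in the quadrants of opposite sign.

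Several changes were in members whose reads may belong to a copy. Gm10076, the most abundant member per length, is 99.5% identical to Rpl41, a gene of the large ribosomal subunit. It had 91.6, 89.1 and 86.3 CPM with carnosine and 113, 115 and 108 CPM with saline. No library overlapped, and the fall of 0.33 ± 0.0399 was close to that of Rpl41 (0.35 ± 0.0405). Gm26825 is 99.6% identical to the chaperone gene Hspa8 over 95.8% of its length. It had 62.3, 53.4 and 75.4 CPM with carnosine and 108, 78.7 and 98.6 CPM with saline, and fell by 0.58 ± 0.15 (edgeR, adjusted p = 0.020), while Hspa8, at 2184 ± 72.3 CPM with carnosine and 2562 ± 32.2 CPM with saline, fell by 0.23. The call of Gm26825 was lost without carnosine replicate 1 or 2 or saline replicate 1 or 3 (0.0539 to 0.0632). Gm49207, of which nearly the whole transcript of 279 bases matches a stretch of the co-chaperone gene Ahsa1, did not pass.

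On chromosome 17 a pair of members sits at a ribosomal RNA sequence. Gm26917 ends 12 bases before the RefSeq gene Rn18s-rs5, an 18S ribosomal RNA related sequence, and Gm42418 overlaps it by 1245 of its 1831 bases. Gm26917 had 159, 157 and 173 CPM with carnosine and 239, 231 and 209.6 CPM with saline, and fell without overlap by 0.48 ± 0.0587 (edgeR, adjusted p = 0.00074). Gm42418 stood at 37.8 ± 1.29 CPM with carnosine and 39.0 ± 0.552 CPM with saline and did not pass (-0.05 ± 0.0501; edgeR, adjusted p = 0.50). The part of ribosomal RNA in this fall was not tested.

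In 15 members the counts of at least 1 group were more than 2-fold apart, of which 0 passed as higher and 3 as lower. Besides Gm44053 and Gm26541 the third was 5031425E22Rik, with 201, 95 and 115 counts with carnosine and 421, 221 and 325 counts with saline. Its groups overlapped once scaled, 14.5 CPM being the highest carnosine and 14.3 CPM the lowest saline value. It changed by -1.13 ± 0.319 (edgeR, adjusted p = 0.027), and the call was lost without carnosine replicate 2 or 3 or saline replicate 1 or 3 (0.0763 to 0.0839). In 4933404O12Rik carnosine replicate 3 had 82 counts, against 572 and 552 in replicates 1 and 2 and 407 to 539 with saline.

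The members together took 0.309 ± 0.00582% of all counts with carnosine and 0.303 ± 0.00142% with saline (SD, n = 3 each). With p = 0.20 in an exact permutation test (two-sided), which cannot go below 0.10 with 3 against 3 libraries, this difference did not pass. Malat1 alone took 0.0694 ± 0.000853% with carnosine and 0.0586 ± 0.000774% with saline (exact permutation p = 0.10). Without Malat1 the shares were 0.239% with carnosine and 0.244% with saline, and as shares of summed FPKM 0.245% with carnosine and 0.251% with saline, so the sign of the difference turned in both (exact permutation p = 0.20 and 0.30).

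Promoters, 250 bases before to 50 after the start, were matched in RefSeq for 60 members and searched on both strands for 4 motifs. Not every window lies at the start of the annotated gene, as that of Mir17hg covers the Mir20a and Mir19b-1 hairpins inside it. The AP-1 motif TGANTCA was in 10.0% of them and in 7.93% of 27025 promoters of all genes, and the C/EBP motif TTGCNNAA in 6.67% and 10.8%. The cyclic AMP element TGACGTCA was in 1.67% and 1.88%, and the E-box CACGTG in 10.0% and 7.24%. Of the members with an AP-1 match, Mirt1 fell and Gm16907 rose (0.46 ± 0.122), a call lost without carnosine replicate 2 or saline replicate 1 (edgeR, adjusted p = 0.0676 and 0.0706). A pair of promoters is printed from RefSeq (GRCm38.p6), both on the minus strand: that of Gpr141b (chr13:19732902-19733201), as the member with the largest rise, which held none of the 4 motifs, and that of Mirt1 (chr19:53464747-53465046) with its AP-1 letters in capitals.
Gpr141b: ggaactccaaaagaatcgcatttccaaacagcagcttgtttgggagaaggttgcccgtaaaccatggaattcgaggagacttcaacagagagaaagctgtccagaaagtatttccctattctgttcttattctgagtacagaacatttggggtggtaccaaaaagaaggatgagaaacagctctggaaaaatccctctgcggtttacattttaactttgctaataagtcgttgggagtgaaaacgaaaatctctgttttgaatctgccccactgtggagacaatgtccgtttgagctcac
Mirt1: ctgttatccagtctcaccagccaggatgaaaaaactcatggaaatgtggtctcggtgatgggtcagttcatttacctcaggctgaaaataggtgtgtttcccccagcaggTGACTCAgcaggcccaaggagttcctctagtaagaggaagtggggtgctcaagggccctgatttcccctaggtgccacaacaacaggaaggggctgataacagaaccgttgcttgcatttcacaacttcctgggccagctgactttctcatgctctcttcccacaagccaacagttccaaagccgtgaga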

How the data were processed

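The deposited table gives, per the file headers, a whole-number count and an FPKM value per gene and library. Counts as deposited by the authors were not normalized, and the authors' FPKM values are relative to gene length and library total. The submitters' processing notes name CASAVA 1.8, HISAT2, StringTie, edgeR and the build GRCm38 without saying what each did. Alignment settings, annotation, strand use and the handling of multi-mapped reads: not given in the sources used here. Every row named a gene. Of the gene identifiers, 96.1% lie at their GENCODE M21 position.

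Counts of all genes went into edgeR 4.0.16 under R 4.3.3 (filterByExpr, which kept 15533 genes and 99.8% of counts, TMM scaling, quasi-likelihood F-test, no covariate, Benjamini-Hochberg at 0.05). The procedure was tested on simulated data. The biological coefficient of variation was 0.0999. Libraries of a group differed by 1.71 to 1.94 times sampling noise, so none was a duplicate, and by 9.79 to 11.6 times between groups. The standard error is the log2 fold change divided by the square root of F. CPM are on the TMM scale, as mean ± SD of 3 libraries. Exact permutation tests used SciPy 1.17.1 and copies were found with BLAST 2.17.0 among GENCODE M21 transcripts.

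The members, role lists and marker lists were chosen with earlier results of these data known. Named members are the 8 highest by FPKM, the 10 largest rises and falls that passed with groups that did not overlap and at least 2 CPM in the higher group, those on the role lists, and those beside the threshold of 30 counts. Members named because of annotation, copies, unstable counts, steady falls or neighbours (Gm26885, 4833445I07Rik, 5031425E22Rik, Gm37233, 4933404O12Rik, Gm7292, Gm42418, Gm16907, Gm19590, AI504432 and AW112010) were chosen after their values were seen. Alternatives were DESeq2 1.42.0 size factors and Wald test, upper quartile scaling, no filter, at least 5 CPM in 3 libraries, limma-voom and limma-trend (limma 3.58.1) on log2(FPKM + 1) where 3 libraries reached 1 FPKM, a block for replicate number, a 2-fold minimum and each library left out.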

Additional observations from a re-analysis of the deposited data

How the results depend on the processing

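Of the 52 called lincRNAs, 32 kept the call whichever 1 library was left out, and 20 were called in all 14 refits, of which the 5 CPM filter tested just 74 members and the FPKM values 116. With the DESeq2 Wald test 13 members were higher in place of 25 and 19 lower in place of 27. Among all tested genes 2149 were higher in place of 3038 and 2301 lower in place of 3077. The cause was not tested. Requiring a 2-fold change left 3 higher and 7 lower members, and 475 higher and 549 lower genes in all. With 1 library left out, 17 to 22 members were higher and 18 to 23 lower, among 2491 to 2590 and 2591 to 2727 genes. The share of counts differed by 0.00595 percentage points, carnosine minus saline, by 0.00272 to 0.00836 with 1 library left out, by -0.0058 for summed FPKM (exact permutation p = 0.30) and by -0.0049 without Malat1 (exact permutation p = 0.20); the cause of the change of sign was not tested beyond this. Without the 2 members at the ribosomal locus it was 0.0115 (exact permutation p = 0.10), an alternative chosen after seeing the data. Pvt1 changed sign without carnosine replicate 1 and ranged from -0.0359 to 0.40 on the log2 scale with 1 library left out. Other alternatives added after seeing the data gave 23 higher and 25 lower members without near-identical copies, 25 and 24 without unstable counts, 22 and 25 without coding overlap on the same strand, and 21 and 24 without genes that RefSeq does not list as lncRNA but as another kind or at the ribosomal locus. With the replicate number as a block 43 members were called, all among the 52, beside 2552 higher and 2679 lower genes in all. Same-numbered libraries deviated together with correlations of only 0.0079 to 0.0268, but all 3 libraries of each group correlated best with their own number. These values cannot decide whether the numbers pair libraries, and the labels do not say. With a median of 67.2 counts small changes of members could be missed, and the part of depth in their share of calls was not tested.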

Other observations

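The lincRNA genes under the threshold of 30 counts show what the threshold left out. Of these, 152 had enough counts to be tested, with a median of 17.1 counts, and in the carnosine libraries 15 rose and 11 fell (edgeR, adjusted over all 15533 genes). That is 17.1% of them, against 36.6% of the members and 39.4% of all tested genes. Their median standard error was 0.289 on the log2 scale, against 0.159 for the members. A change of at least 2-fold was called in 13 of the 152 that rose and 5 that fell, against 3.06% and 3.53% of all tested genes. A gene with so few counts could pass the count filter through the group where it was higher. These counts are therefore a description.

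Of the members outside the rule for named genes, AI504432 and AW112010 had some of the steadier falls, and both were picked after their values were seen. AI504432 had 61.3, 59.3 and 60.9 CPM with carnosine and 79.1, 82.8 and 79.7 CPM with saline, and fell by 0.41 ± 0.0409 on the log2 scale (edgeR, adjusted p = 0.00026). Its neighbour Kcna3, a potassium channel gene of lymphocytes 1434 bases away, fell by 0.39. AW112010, an interferon-responsive transcript in mouse immune cells, had 14.5, 12.4 and 14.1 CPM with carnosine and 22.2, 19.02 and 19.7 CPM with saline and fell by 0.57 ± 0.094 (edgeR, adjusted p = 0.0028).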
